A study of Mus musculus with 8 samples.

Results

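The 4 heart libraries of *Dgcr8* conditional knockout (cKO) embryos were compared across 1 day of development, from embryonic day (E) 8.5, when the heart is a linear tube that begins to loop, to E9.5, when chambers form. Members were chosen by their sample labels: 2 libraries were labelled E8.5 cKO and 2 were labelled E9.5 cKO, of 8 libraries in the series. The other 4 were wild-type (WT) hearts, 2 at each stage, and they entered as the reference for the same interval. The strain label was C57BL/6. The cKO genotype label was Mesp1Cre/+; Dgcr8-/-, and in full it joins 2 floxed *Dgcr8* alleles (loxP/loxP) with 1 *Mesp1* Cre allele and 1 *Rosa26* mT/mG allele. Controls lacked Cre and had the other alleles, so both genotypes held the floxed alleles and the fluorescent reporter, and cKO embryos also carried the Cre insertion at *Mesp1*. *Mesp1* is active in early mesoderm, so *Dgcr8* was deleted in its progeny (heart muscle, endocardium and much of the epicardium) and not in cells of other origin within the dissected heart. The 2 replicates of a group were described as biological. Whether each library held 1 heart or several pooled hearts was not given in the sources used here.

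DGCR8 is the RNA-binding partner of the nuclease Drosha in the microprocessor, which cuts hairpins out of primary microRNA (miRNA) transcripts; without it canonical miRNAs are not made. In the interval studied, the normal mouse heart starts regular contraction, adds cells from the second heart field at its poles, switches on chamber genes such as the natriuretic peptides, and assembles sarcomeres, the repeating actin and myosin units of striated muscle. Endocardial cells begin to form cushions, the epicardium arrives on the surface, and the embryo passes from diffusion to a working circulation.

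The deposited FPKM of a library summed to between 884018 and 1944596, and entries with loci under 300 bp held 15.7% to 54.5% of it, the most in E9.5 cKO replicate 1. FPKM does not give the number of reads, so the depth behind a value is unknown. Levels are given as scaled FPKM: the deposited FPKM (fragments relative to transcript length and to the mapped total of the library) divided by 1 factor per library, so that the typical gene lies at the same level in all 8. Changes are log2 differences of scaled FPKM + 1, E9.5 minus E8.5, which understates changes of genes near or below 1 FPKM. With this scaling the median change of the 10018 tested genes was -0.046 in cKO hearts and -0.043 in WT hearts. In the values as deposited it was -0.64 in cKO hearts, so list medians are stated relative to the median gene. A gene was called when its limma adjusted p was below 0.05 and its change was at least 1.5-fold. Of the tested genes, 400 rose (3.99%) and 77 fell (0.769%) in cKO hearts, so 83.9% of the calls were rises; as deposited, 6.69% were (205 rises against 2857 falls). At an unadjusted p below 0.05 and 1.5-fold, 1459 genes (14.6%) were higher and 1082 (10.8%) lower. All 477 called genes had separate libraries at the 2 stages, and 2720 genes (27.2% of those tested) were separate in the upward and 2807 (28% of those tested) in the downward direction. For scale, 3518 genes differed by 1.5-fold or more between the E8.5 cKO libraries and 1913 between those of E9.5 cKO.

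The calls rested on few libraries. Without E9.5 cKO replicate 1 the fit called 1 rise and 0 falls (at an unadjusted p below 0.05 and 1.5-fold, 1142 and 578), and without E9.5 cKO replicate 2 it called 16 and 3. Without E8.5 cKO replicate 1 it called 930 and 776. WT libraries, which share the estimate of spread, also mattered: it called 157 and 17 without E8.5 WT replicate 1, 158 and 18 without E8.5 WT replicate 2, 344 and 158 without E9.5 WT replicate 1 and 350 and 157 without E9.5 WT replicate 2. Of the 477 called genes, 0 were called in all 4 fits that left out a cKO library and 14 in 3 of them. The genes named below as the 12 largest rises and the 12 largest falls among the called genes were therefore chosen after their values were seen.

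E8.5 cKO replicate 2 stood apart from the other cKO libraries. Its 14 decidual stroma markers (maternal uterine tissue) summed to 5176 FPKM as deposited, against 19.8 in replicate 1, 10.3 and 6.61 in the E9.5 cKO hearts, and 489 and 1178 in the E8.5 WT hearts. The 10 trophoblast markers summed to 1099 FPKM in it, to 11.7 in replicate 1, and to 59.8 and 146 in the E8.5 WT hearts. The 17 markers of uterine natural killer and myeloid cells summed to 370.1 in it and 9.04 in replicate 1, and to 662 and 127 in the E8.5 WT hearts, so the WT stage change carries such markers too. Of these 17, 10 were listed at 0 in replicate 1. Its heart muscle markers were lower, 37527 against 53051 FPKM, and so were its primitive erythroid markers, 9753 against 35518. Decidual *Prl8a2*, a prolactin family hormone, shows the scale: its scaled FPKM was 7.78 and 4556 at E8.5 and 2.77 and 1.12 at E9.5. Its change of -6.14 ± 2.34 (SE, limma adjusted p = 0.152) was not called. The 14 yolk sac endoderm markers summed to 9276 and 2687 at E8.5 and to 4964 and 7273 at E9.5, and adult globins to 4451 and 14841 and to 5939 and 4569. The part of these cells in the results below was not tested, and each list is therefore also given without that library. In whole hearts, fewer cells of a type and less RNA per cell cannot be told apart. Without E8.5 cKO replicate 2, 90 genes rose (0.898%) and 14 fell (0.14%), of which 83 and 11 were among the 400 and 77.

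**Figure D1:**
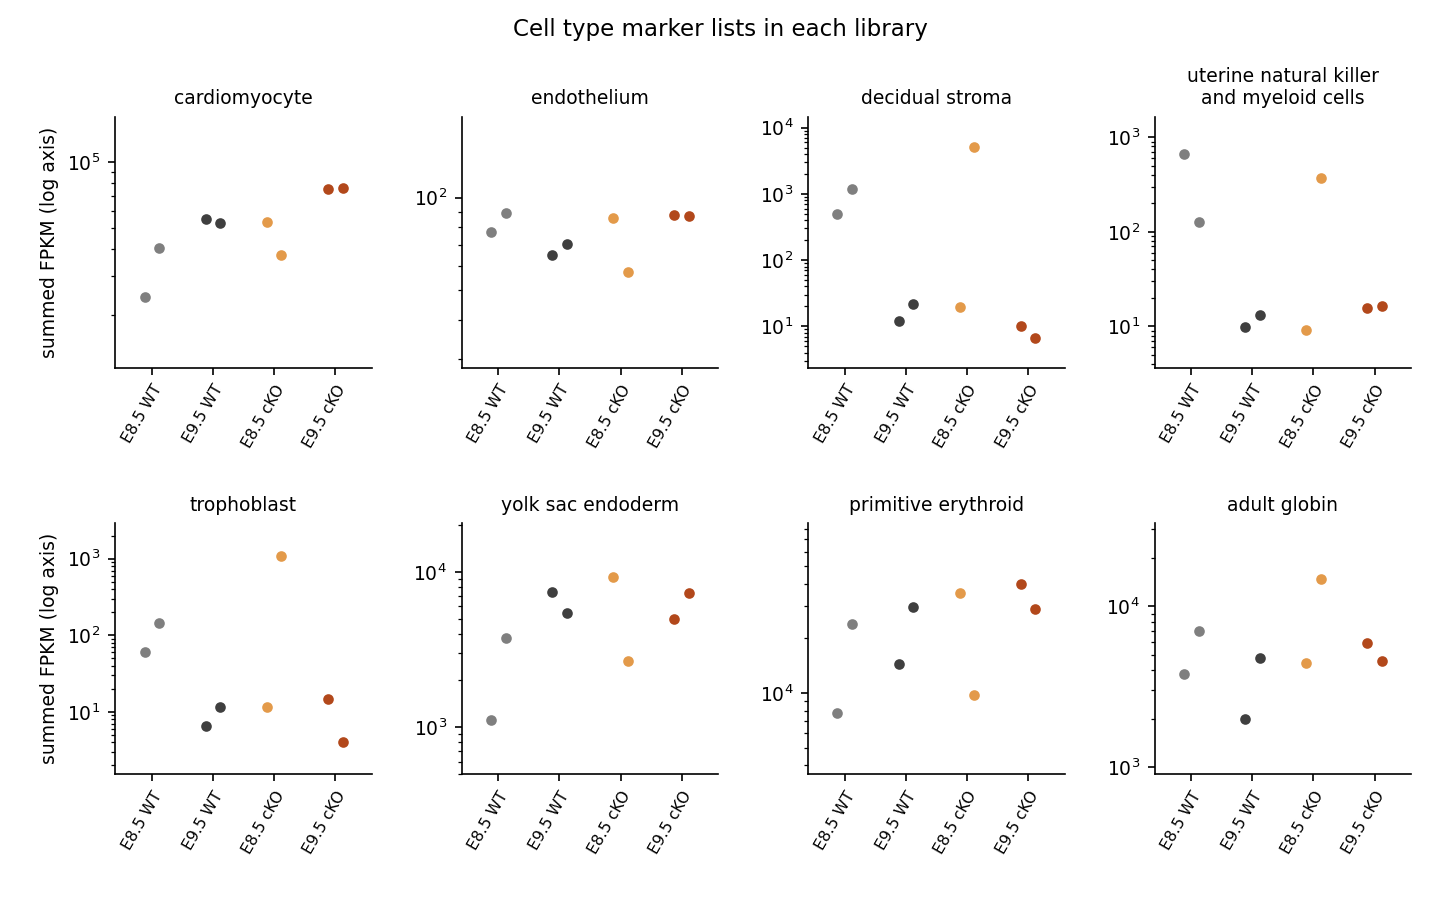
Summed FPKM as deposited (log axis) of 8 cell type marker lists in each of the 8 libraries, by stage and genotype; each point is 1 library. Decidual stroma reaches 5176 FPKM in 1 E8.5 cKO library and stays at or below 19.8 in the other 3 cKO libraries, and heart muscle markers are highest in the 2 E9.5 cKO libraries (75481 and 76081).

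The heart label held: the 8 cardiomyocyte markers summed to between 24137 and 76081 FPKM in the 8 libraries, with no member at 0 in a cKO library. The 11 neural tube markers summed to at most 1.74 FPKM in a cKO library, with 5 to 7 of them at 0. The 6 neural crest markers summed to between 5.40 and 96.4 and the 8 foregut markers to between 35.5 and 178. The knockout label was read from *Dgcr8* itself and from 1 uncut primary transcript. *Dgcr8* stood at scaled FPKM of 1.28 and 4.17 at E8.5 and 1.53 and 2.65 at E9.5 in cKO hearts, and at 4.58 and 5.64 at E8.5 and 4.55 and 4.20 at E9.5 in WT hearts. Every cKO library lay below every WT library, none was at 0, and replicate 2 of E8.5 cKO came closest. Between the stages of cKO hearts *Dgcr8* was not called, with a change of -0.18 ± 0.39 (SE, limma adjusted p = 0.79), which was 0.41 without E8.5 cKO replicate 2. A gene-level FPKM also counts reads from exons outside the deleted part. *Mir17hg*, the primary transcript of the miR-17 cluster, was at 14.2 and 19.3 at E8.5 and 15.01 and 16.4 at E9.5 in cKO hearts, and at 0.694 and 0.862 at E8.5 and 0.315 and 0.998 at E9.5 in WT hearts. It was thus already high in cKO hearts at E8.5, with no overlap between genotypes, and its change in cKO hearts was -0.076 ± 0.28 (SE, limma adjusted p = 0.876). Of the 9 listed host transcripts in the table, 6 passed the filter on low values and 1 rose (against 3.99% of all tested genes), *Meg3*, a long noncoding RNA from an imprinted miRNA cluster (change 1.71, against 2.01 in WT hearts; list median 0.23). Without E8.5 cKO replicate 2 its change was 1.66, the call was lost and the list median was 0.19. Of 10 genes of miRNA processing, 7 were tested and 0 were called (at an unadjusted p below 0.05 and 1.5-fold also 0), with a median of -0.13 relative to the median gene (-0.044 without E8.5 cKO replicate 2).

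Of 37 listed genes of the sarcomere 35 were tested, 15 rose (against 3.99% of all tested genes) and 0 fell, and 34 lay above the median gene. The list median was 1.40 relative to the median gene, against 1.64 over the same day in WT hearts. It was 2.18 for the 8 thick filament genes, 1.71 for the 12 thin filament genes and 1.05 for the 15 genes of the Z-disc and M-band. Without E8.5 cKO replicate 2 the list median was 1.22 and 2 members were called, *Tpm2* and *Des*.

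*Myl2*, the regulatory light chain of ventricular myosin, was at scaled FPKM of 1469 and 665 at E8.5 and 9420.1 and 18150.1 at E9.5. Its stages were fully apart, with a change of 3.72 ± 0.55 (SE, limma adjusted p = 0.0158), and it was 4.68 in WT hearts. *Myh7*, the slow myosin heavy chain that the embryonic ventricle uses, was at 197 and 104 at E8.5 and 1416 and 1796 at E9.5 and changed by 3.47 ± 0.61 (SE, limma adjusted p = 0.0235). The light chains *Myl3* (2.20) and *Myl4* (2.06) and the myosin-binding protein *Mybpc3* (2.53) rose too. *Myh6*, the heavy chain of atrial muscle, was not called: it stood at 316 and 306 at E8.5 and 564 and 851 at E9.5, a change of 1.15 ± 0.38 (SE, limma adjusted p = 0.118). In WT hearts its change was 2.26. The atrial light chain *Myl7* was abundant at both stages, at 22415 and 18044 at E8.5 and 44783 and 48579.7 at E9.5, with a change of 1.21 ± 0.31 (SE, limma adjusted p = 0.0649) that was not called and that turned to -0.0094 with quantile normalization.

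Among thin filament genes the clearest was *Tpm2*, a beta tropomyosin of slow and smooth muscle, at scaled FPKM of 48.8 and 49.5 at E8.5 and 221 and 249 at E9.5. Its change was 2.23 ± 0.24 (SE, limma adjusted p = 0.00618), and 2.24 without E8.5 cKO replicate 2. In WT hearts *Tpm2* was at 36.8 and 35.8 at E8.5 and 35.7 and 41.6 at E9.5; the difference between the genotypes' stage changes was 2.15 ± 0.33 (SE, limma adjusted p = 0.16) and did not pass the test. *Acta1*, skeletal alpha actin, rose by 2.34 and *Actc1*, the cardiac actin, by 1.79, from 11965 to 41127 scaled FPKM on average. The actin genes share long identical stretches, so reads may be split between them. The troponins *Tnni3* (cardiac inhibitory subunit) and *Tnnt2* (tropomyosin-binding subunit) were not called. *Tnni3* was at 429 and 117 at E8.5 and 1191 and 1399 at E9.5, which did not overlap, and changed by 2.52 ± 0.59 (SE, limma adjusted p = 0.053). *Tnnt2* changed by 1.36 ± 0.47 (SE, limma adjusted p = 0.126), and *Tnni1*, the slow isoform that precedes *Tnni3* in development, by 1.55 ± 0.35 (SE, limma adjusted p = 0.0506).

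At the Z-disc, *Des*, the intermediate filament desmin, was at scaled FPKM of 179 and 154 at E8.5 and 910.2 and 992 at E9.5 and rose by 2.51 ± 0.28 (SE, limma adjusted p = 0.0062). Its change without E8.5 cKO replicate 2 was 2.39, the smallest shift among the called genes of this role. *Actn2*, the Z-disc crosslinker, rose by 2.81 and *Csrp3*, a mechanosensing LIM protein, by 2.79. *Nebl*, the thin filament anchor nebulette, was the 1 sarcomere gene below the median gene, with values of 3.08 and 2.72 at E8.5 and 3.79 and 0.975 at E9.5 that overlapped between the stages. *Ttn*, the giant spring titin, changed by 0.86 ± 0.46 (SE, limma adjusted p = 0.258) and was not called.

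**Figure D2:**
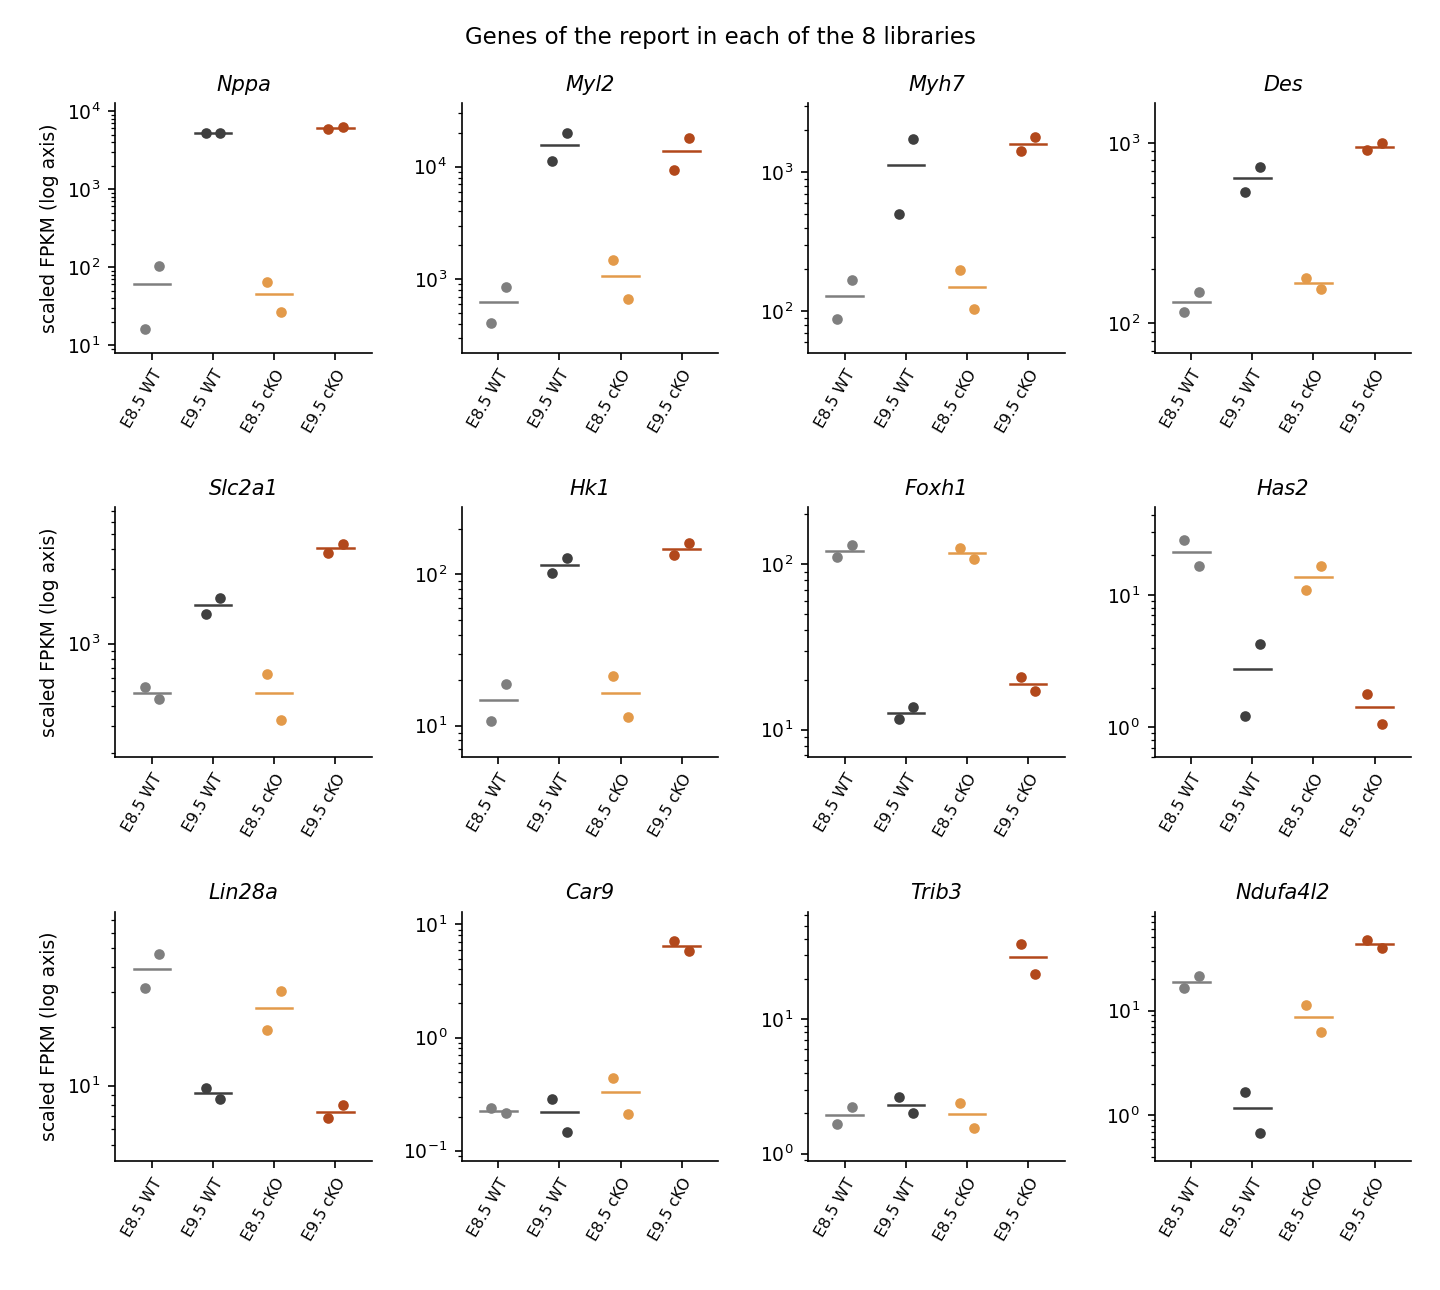
Scaled FPKM (log axis) of 12 genes in each of the 8 libraries; points are libraries and lines are group means. *Nppa*, *Myl2*, *Myh7*, *Des*, *Hk1* and *Slc2a1* are higher at E9.5 in both genotypes, *Foxh1*, *Has2* and *Lin28a* are lower at E9.5 in both, and *Car9*, *Trib3* and *Ndufa4l2* are highest in the 2 E9.5 cKO libraries.

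The largest change of any called gene was that of *Nppa*, the atrial natriuretic peptide gene that marks working chamber muscle (chr4:148000722-148002074, GRCm38). It stood at scaled FPKM of 64.6 and 27.0 at E8.5 and 5828 and 6255 at E9.5 in cKO hearts and at 16.2 and 105 at E8.5 and 5181 and 5296 at E9.5 in WT hearts, changes of 7.14 ± 0.76 (SE, limma adjusted p = 0.00618) and 6.94. Its neighbour *Nppb* (chr4:147985788-147987205), which encodes the B-type peptide, was at 30.4 and 18.8 at E8.5 and 2414 and 777 at E9.5 and changed by 5.78 ± 0.73 (SE, limma adjusted p = 0.00966). In WT hearts *Nppb* was at 17.9 and 81.0 at E8.5 and 259 and 283 at E9.5, below both E9.5 cKO libraries, and the difference between the stage changes was 2.99 ± 1.03 (SE, limma adjusted p = 0.703), which did not pass. Without E8.5 cKO replicate 2 the changes were 6.52 and 5.44, and of the 2 *Nppa* was still called. Of 15 genes on the chamber list 14 were tested, and these 2 rose (against 3.99% of all tested genes) and 0 fell, with a list median of 0.51 (0.35 in WT hearts, 0.41 without E8.5 cKO replicate 2). *Gja5*, a gap junction gene of fast-conducting muscle, changed by 1.17 ± 0.36 (SE, limma adjusted p = 0.102). Of the 8 transcriptional regulators on the list, 0 were called.

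Because *Nppa* and *Nppb* are neighbours, with RefSeq starts 14822 bp apart, and were the 2 largest called rises, the 250 bases upstream of their RefSeq starts are shown (GRCm38.p6, chr4:148000472-148000721 and chr4:147985650-147985899, both on the plus strand). Capitals mark GATAA, the core that GATA factors bind, on either strand. Each window held 2 matches. The deposited *Nppb* locus starts 112 bp before the RefSeq start, so the last 112 bases of its window, both matches included, lie inside that locus. At least 1 match was present in 14.7% of the 7665 upstream windows of tested genes that had one in the RefSeq table, in 15.6% of the 302 windows of genes that rose, and in 11 of the 31 windows (35.5%) of tested sarcomere genes. A match is a run of letters and not a site shown to be bound.
Nppa: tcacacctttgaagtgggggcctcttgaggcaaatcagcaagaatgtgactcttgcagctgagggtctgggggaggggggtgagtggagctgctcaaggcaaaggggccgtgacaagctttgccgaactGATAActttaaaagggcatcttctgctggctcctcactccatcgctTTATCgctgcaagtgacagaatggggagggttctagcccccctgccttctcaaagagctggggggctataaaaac
Nppb: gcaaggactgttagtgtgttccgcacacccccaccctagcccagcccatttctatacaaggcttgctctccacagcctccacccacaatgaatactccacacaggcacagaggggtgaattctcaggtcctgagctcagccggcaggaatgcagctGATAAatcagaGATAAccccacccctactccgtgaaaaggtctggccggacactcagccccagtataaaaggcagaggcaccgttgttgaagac

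Of 24 listed genes that handle calcium and set the heartbeat 16 were tested, 3 rose (against 3.99% of all tested genes) and 0 fell, and the median was 0.53 (0.26 in WT hearts, 0.60 without E8.5 cKO replicate 2, when 0 were called and 5 had an unadjusted p below 0.05 and a 1.5-fold rise). *Casq1*, a calcium store protein of the sarcoplasmic reticulum, was at scaled FPKM of 87.8 and 28.8 at E8.5 and 209 and 239.6 at E9.5 and rose by 2.13. *Kcne1*, a potassium channel subunit, rose by 1.48 and *Cacna1h*, a T-type calcium channel, by 1.43. Both averaged under 1 FPKM in the 6 libraries other than E9.5 cKO, so they passed the filter on low values only through the group where they are high, and their calls are descriptions. Of the 16 tested genes 4 passed in this way, these 2 among them, so the count of 3 rises and the list median are descriptions too. *Pln*, phospholamban, the brake on the calcium pump, was at 0.945 and 0.462 at E8.5 and 12.5 and 10.9 at E9.5. Its stages were separate in both genotypes, and its change of 2.91 ± 0.71 (SE, limma adjusted p = 0.0607) was not called. *Atp2a2*, the pump itself, changed by -0.33 ± 0.46 (SE, limma adjusted p = 0.66).

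The core cardiac transcription factors showed no called change. Of 18 listed 16 were tested and 0 were called (also 0 at an unadjusted p below 0.05 and 1.5-fold), with a median of -0.18 (-0.040 in WT hearts). The median turned to 0.068 without E8.5 cKO replicate 2 and was -0.43 after GC and length correction. *Nkx2-5* was at scaled FPKM of 16.9 and 77.7 at E8.5 and 68.7 and 53.9 at E9.5, so that its E8.5 replicates spanned both E9.5 values, and changed by 0.72 ± 0.80 (SE, limma adjusted p = 0.576); the change was 1.78 without E8.5 cKO replicate 2, -0.35 without replicate 1 and -0.018 as deposited. *Gata4*, at 9.05 and 12.5 at E8.5 and 12.5 and 7.25 at E9.5, overlapped between the stages. *Mef2c*, a MADS-box activator of muscle genes, was at 10.02 and 19.02 at E8.5 and 7.81 and 3.85 at E9.5, lower at E9.5 in every library, with a change of -1.18 ± 0.53 (SE, limma adjusted p = 0.204) that was not called.

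*Foxh1*, the DNA-binding partner of Smad proteins in Nodal signalling, was at scaled FPKM of 125 and 108 at E8.5 and 20.7 and 17.1 at E9.5, a change of -2.56 ± 0.25 (SE, limma adjusted p = 0.00569). It was -2.67 without E8.5 cKO replicate 2. In WT hearts *Foxh1* was at 110.5 and 129.7 at E8.5 and 11.6 and 13.7 at E9.5, a change of -3.15. *Lefty2* and *Cfc1* were also among the 12 largest falls with the main settings. *Lefty2*, a secreted Nodal inhibitor of the left side, was at 3.67 and 11.1 at E8.5 and 0 and 0.144 at E9.5, and *Cfc1*, the Nodal co-receptor Cryptic, was at 23.7 and 17.8 at E8.5 and 3.46 and 1.96 at E9.5. These genes were singled out after their values were seen and together form no list that was tested. *Foxh1* also belongs to the list described next.

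Within the list of second heart field and mesoderm genes, 10 of 22 were tested, 0 rose and 2 fell (against 0.769% of all tested genes), *Foxh1* and *Pdgfra*, a receptor of uncommitted mesoderm. *Pdgfra* was at 4.05 and 10.01 at E8.5 and 0.956 and 1.23 at E9.5 and changed by -1.84 ± 0.38 (SE, limma adjusted p = 0.0376); without E8.5 cKO replicate 2 the change was -1.27 and the call was lost. The list median was -0.14 (-0.64 in WT hearts, -0.11 without that replicate). *Isl1*, the homeobox marker of second heart field cells, was at 3.66 and 6.28 at E8.5 and 1.17 and 5.69 at E9.5 and overlapped between the stages.

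Of 18 in the list of pluripotency genes and the let-7 axis 13 were tested, 0 rose and 1 fell (against 0.769% of all tested genes), and 10 lay below the median gene. The median was -0.83 in cKO hearts and -0.55 in WT hearts, and -0.58 without E8.5 cKO replicate 2, when 0 were called (0 higher and 3 lower at an unadjusted p below 0.05 and 1.5-fold). *Lin28a*, which blocks the maturation of let-7 miRNAs, was at scaled FPKM of 19.2 and 30.4 at E8.5 and 6.83 and 7.94 at E9.5 and changed by -1.59 ± 0.31 (SE, limma adjusted p = 0.0309); without E8.5 cKO replicate 2 the change was -1.27 and the call was lost. In WT hearts it was at 31.4 and 46.6 at E8.5 and 9.72 and 8.59 at E9.5, a change of -1.95. *Hmga2*, a chromatin protein and let-7 target, was at 11.97 and 28.3 at E8.5 and 7.69 and 6.48 at E9.5 and its change of -1.27 ± 0.42 (SE, limma adjusted p = 0.113) was not called.

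The remaining large falls came from varied genes. *Klk1*, a tissue kallikrein, was at 7.98 and 8.76 at E8.5 and 0.232 and 0.122 at E9.5 and fell by 2.99; the change was -2.92 without E8.5 cKO replicate 2 and still called. *Gstt1*, a glutathione transferase (-2.54), *Gal*, the neuropeptide galanin (-2.37), *Rgs4*, a regulator of G-protein signalling (-2.16), and *Spin2c* (-2.07) fell too. All 4 were still called without E8.5 cKO replicate 2. *Tspan12* (-2.93), *Has2* (-2.59), *Emb* (-2.34), *Amd1* (-2.16) and *Pno1* (-2.06) were the largest falls that lost their call when 1 E8.5 cKO library was left out. Without replicate 2 their changes were -2.69, -2.31, -2.28, -1.73 and -1.82.

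Of 32 endothelial and endocardial genes 26 were tested, 2 rose (against 3.99% of all tested genes) and 0 fell, and 22 lay above the median gene. The median was 0.73 in cKO hearts and 0.071 in WT hearts, 0.50 without E8.5 cKO replicate 2, when *Eng* alone was called, and 0.44 after correction for GC content and length of transcripts. *Eng*, endoglin, a TGF-beta co-receptor, was at scaled FPKM of 21.4 and 9.36 at E8.5 and 79.1 and 74.5 at E9.5 and changed by 2.35 ± 0.38 (SE, limma adjusted p = 0.0195). *Tie1*, an orphan receptor kinase, was at 15.2 and 6.85 at E8.5 and 36.8 and 31.6 at E9.5 and rose by 1.64; without E8.5 cKO replicate 2 the change was 1.11 and the call was lost. *Pecam1*, an adhesion molecule of all endothelium, was at 16.1 and 13.6 at E8.5 and 28.3 and 43.9 at E9.5 and changed by 1.198 ± 0.28 (SE, limma adjusted p = 0.0507), just short of a call. The specification factor *Etv2* was at 3.34 and 0.965 at E8.5 and 0.647 and 0.485 at E9.5, lower at E9.5 in both libraries, with a change of -0.90 ± 0.41 (SE, limma adjusted p = 0.204). The 7 endothelial markers summed to 85.7 and 57.3 FPKM at E8.5 and 87.7 and 87.2 at E9.5 as deposited. For no endothelial gene did the stage change differ between genotypes after adjustment; 4 of 26 were higher in cKO hearts at an unadjusted p below 0.05 and 1.5-fold, against 3.75% of all tested genes.

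Of 24 genes of the cushion mesenchyme and its matrix 21 were tested, 3 rose (against 3.99% of all tested genes) and 1 fell (against 0.769%), with a median of 0.42 against 1.09 in WT hearts (0.63 without E8.5 cKO replicate 2, when 0 were called and 5 rises and 1 fall had an unadjusted p below 0.05 and 1.5-fold). The collagens *Col1a1* and *Col3a1* and fibronectin (*Fn1*) rose. *Col3a1* was at scaled FPKM of 0.962 and 1.71 at E8.5 and 7.59 and 11.02 at E9.5 in cKO hearts and at 4.10 and 1.37 at E8.5 and 53.0 and 47.9 at E9.5 in WT hearts, so both E9.5 cKO values lay below both E9.5 WT values; the difference between the stage changes was -1.74 ± 0.55 (SE, limma adjusted p = 0.647). *Has2*, the synthase of cushion hyaluronan, was at 10.9 and 16.4 at E8.5 and 1.79 and 1.06 at E9.5 and changed by -2.59 ± 0.44 (SE, limma adjusted p = 0.0227), and by -2.66 in WT hearts. Of 12 epicardial genes 6 were tested and 2 rose (against 3.99% of all tested genes), with a list median of 0.71 (0.96 in WT hearts, 0.81 without E8.5 cKO replicate 2). *Upk3b*, a surface protein of mesothelium, was at 0.491 and 1.15 at E8.5 and 6.34 and 7.29 at E9.5 in cKO hearts and at 0.353 and 0.484 at E8.5 and 20.4 and 15.3 at E9.5 in WT hearts. *Krt19*, a keratin of simple epithelia, was at 38.9 and 126 at E8.5 and 918 and 494 at E9.5, and in WT hearts at 61.8 and 55.0 at E8.5 and 60.5 and 59.9 at E9.5. Both were called with and without E8.5 cKO replicate 2, at 2.12 and 2.37 for *Upk3b* and 3.24 and 4.07 for *Krt19*. *Wt1*, the epicardial transcription factor, changed by 0.41 ± 0.44 (SE, limma adjusted p = 0.56), and by -0.13 as deposited.

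**Figure D3:**
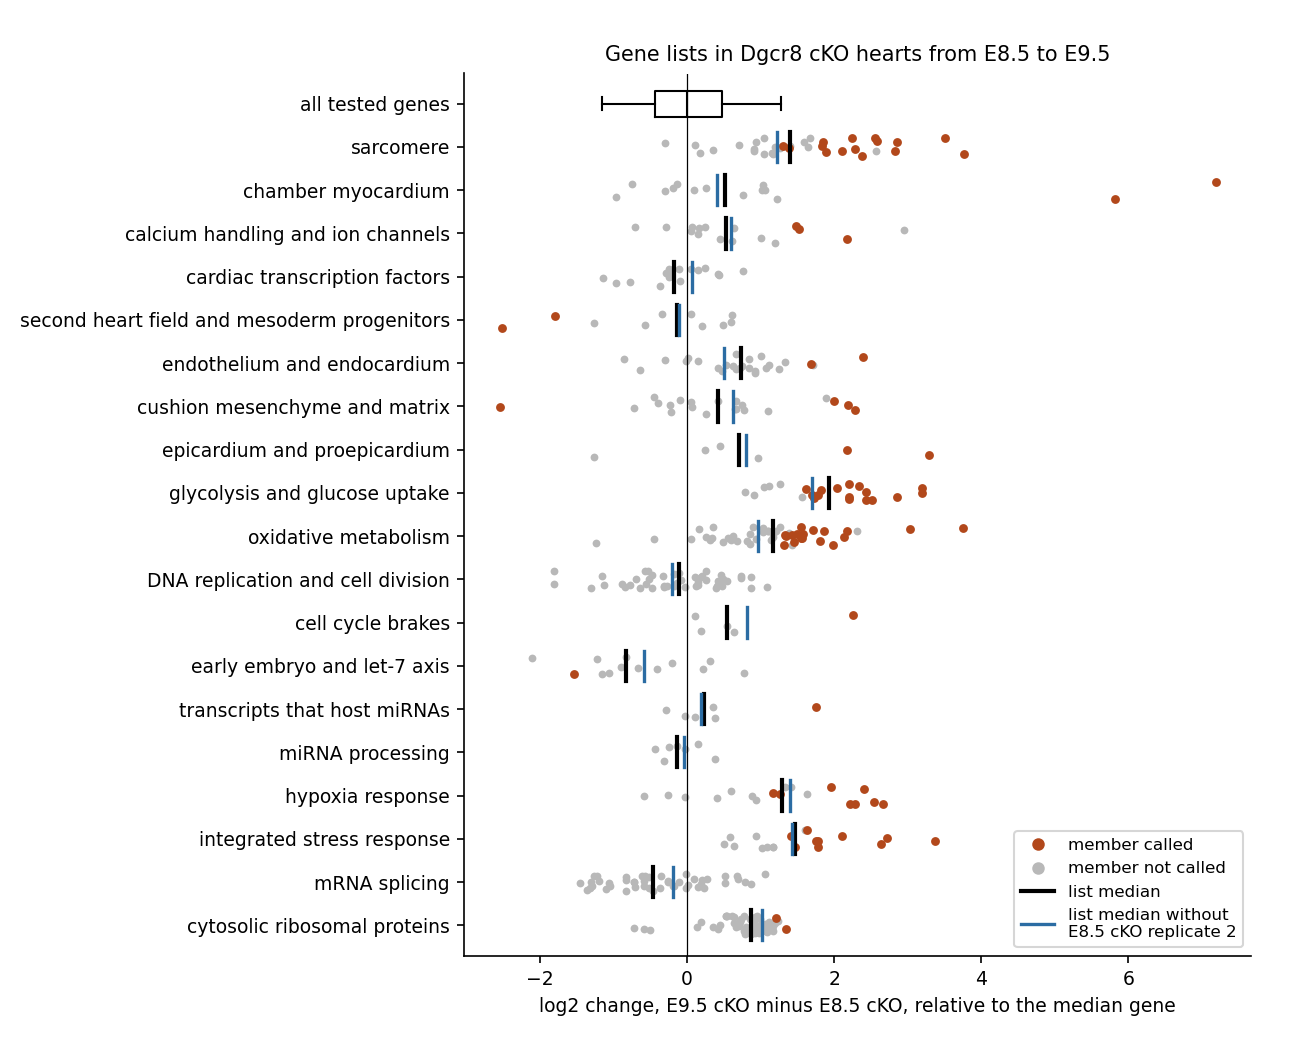
Log2 stage change (E9.5 minus E8.5) in cKO hearts of every tested member of the 19 gene lists, relative to the median gene; coloured points are called members, black bars list medians and blue bars medians without E8.5 cKO replicate 2. The box shows the quartiles and percentiles 5 to 95 of all tested genes. Glycolysis (1.93), the integrated stress response (1.47), the sarcomere (1.40) and the hypoxia response (1.30) have the highest medians with this scaling, and early embryo genes (-0.83) the lowest.

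All 22 listed genes of glycolysis and glucose uptake were tested, all 22 had separate libraries at the 2 stages with E9.5 higher (against 27.2% of all tested genes), and 16 rose (against 3.99%). The median was 1.93 in cKO hearts, the highest of the 19 lists, and 1.28 in WT hearts. Without E8.5 cKO replicate 2 it was 1.69 with 5 called. With quantile normalization it was 0.97, below the stress response (1.40) and the sarcomere (0.98). *Slc2a1*, the glucose transporter GLUT1, was at scaled FPKM of 644 and 324 at E8.5 and 3814 and 4344 at E9.5, a change of 3.15 ± 0.35 (SE, limma adjusted p = 0.0062). WT hearts had *Slc2a1* at 531 and 443 at E8.5 and 1557 and 1954 at E9.5, a change of 1.84. *Hk1*, a hexokinase that commits glucose to the cell, was at 21.4 and 11.4 at E8.5 and 134 and 161 at E9.5 and changed by 3.15 ± 0.38 (SE, limma adjusted p = 0.008), against 2.92 in WT hearts. *Pfkp*, an isoform of phosphofructokinase, rose by 2.82, *Gapdh* by 2.15 and *Ldha*, which makes lactate, by 1.56. *Gapdh* and *Ldha* have processed copies in the genome among which reads can be split. *Hk2*, the insulin-regulated hexokinase, was at 13.0 and 15.3 at E8.5 and 22.6 and 25.9 at E9.5 and its change of 0.74 ± 0.24 (SE, limma adjusted p = 0.111) was not called. In WT hearts it was lower at E9.5, at 22.3 and 20.5 at E8.5 and 11.7 and 9.74 at E9.5; the difference between the stage changes was 1.67 ± 0.34 (SE, limma adjusted p = 0.317).

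Of 51 genes of oxidative metabolism 48 were tested, 18 rose (against 3.99% of all tested genes) and 0 fell. The median was 1.17 in cKO hearts and 1.598 in WT hearts, 0.97 without E8.5 cKO replicate 2 (2 called) and 0.58 with quantile normalization. Respiratory chain and ATP synthase genes gave 11 of the 18 calls among 27 tested. *Cox6a2*, the muscle isoform of a cytochrome oxidase subunit, was at 73.0 and 13.1 at E8.5 and 361 and 487 at E9.5 and changed by 3.70 ± 0.71 (SE, limma adjusted p = 0.0301). With 1 cKO library left out its change was 2.50 to 4.89, the lowest without E8.5 cKO replicate 2. *Cox8b*, another muscle isoform, was listed at 0 in both E8.5 libraries of either genotype and at 5.45 and 8.67 in the E9.5 cKO hearts. *Fabp3*, which carries fatty acids in heart muscle, rose by 1.52, against 1.69 in WT hearts. Cytosolic ribosomal protein genes had a median of 0.87 (1.41 in WT hearts, 1.03 without E8.5 cKO replicate 2 with 0 called) with 2 of 55 called higher (against 3.99% of all tested genes), but -0.15 with quantile normalization, so that the direction of this list depends on the scaling.

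All 47 listed genes of DNA replication and cell division were tested and 0 were called (against 3.99% higher and 0.769% lower of all tested genes). At an unadjusted p below 0.05 and 1.5-fold, 3 were higher and 7 lower, against 14.6% and 10.8% of all tested genes, with a median of -0.10 in cKO hearts against 0.34 in WT hearts (-0.21 without E8.5 cKO replicate 2). Of 10 cell cycle inhibitors 5 were tested and 1 rose (against 3.99% of all tested genes). The list median was 0.54 (0.37 in WT hearts), and 0.82 without E8.5 cKO replicate 2, when 0 were called (2 rises at an unadjusted p below 0.05 and 1.5-fold). *Cdkn1a*, the p21 inhibitor, was at scaled FPKM of 6.36 and 7.09 at E8.5 and 32.7 and 36.7 at E9.5, a change of 2.21 ± 0.32 (SE, limma adjusted p = 0.0157); without that replicate the change was 2.27, with a limma adjusted p of 0.0704. WT hearts had *Cdkn1a* at 8.19 and 3.75 at E8.5 and 5.46 and 5.66 at E9.5, and the difference between the stage changes was 2.22 ± 0.46 (SE, limma adjusted p = 0.32). All 47 genes of the mRNA splicing list were tested and 0 were called (4 higher and 9 lower at an unadjusted p below 0.05 and 1.5-fold, against the same 14.6% and 10.8%). Their median was -0.46, against 0.41 in WT hearts, and it moved to -0.19 without E8.5 cKO replicate 2 and to -0.11 after correction for the guanine and cytosine (GC) content and length of transcripts. Across 9122 genes with a transcript sequence, the change in cKO hearts had a Spearman rho of 0.53 with GC content, and the change in WT hearts of 0.27. Its median was -0.61 in the lowest and 0.36 in the highest of 5 equal groups of genes by GC. The difference between the 2 E8.5 cKO replicates also followed GC content (rho -0.35, replicate 2 minus 1). The part of GC content in the gene-level calls was examined by correcting each library for it, after the data had been seen: it called 401 rises (4.4%) and 126 falls (1.38%), and 297 of the 381 rises and 39 of the 67 falls with a transcript sequence were called again.

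Of 20 listed targets of the hypoxia response 18 were tested, 8 rose (against 3.99% of all tested genes) and 0 fell. The median was 1.30 in cKO hearts and -0.24 in WT hearts; it was 1.40 without E8.5 cKO replicate 2, with 4 called, and 0.94 with quantile normalization. *P4ha2*, a collagen prolyl hydroxylase, was at scaled FPKM of 23.4 and 26.3 at E8.5 and 166 and 151 at E9.5 in cKO hearts and at 19.3 and 20.1 at E8.5 and 19.4 and 22.7 at E9.5 in WT hearts. *Car9*, carbonic anhydrase IX, was at 0.442 and 0.212 at E8.5 and 7.15 and 5.89 at E9.5, and at 0.237 and 0.214 at E8.5 and 0.287 and 0.147 at E9.5 in WT hearts. In both genes the 2 E9.5 cKO libraries stood alone, with changes of 2.62 ± 0.23 (SE, limma adjusted p = 0.00481) and 2.50 ± 0.23 (SE, limma adjusted p = 0.00481). *Car9* averaged under 1 FPKM in the 6 other libraries and passed the filter on low values only through the group where it is high. Its call is therefore a description, although it is 1 of the 8 counted above as risen. *Egln3*, an oxygen-sensing prolyl hydroxylase, rose by 1.92 and *Bhlhe40*, a transcriptional repressor, by 2.17. *Vegfa*, the angiogenic ligand, was at 1.17 and 2.12 at E8.5 and 3.30 and 1.59 at E9.5 and overlapped between the stages, with a change of 0.36 ± 0.31 (SE, limma adjusted p = 0.47) (-0.12 as deposited). *Ndufa4l2*, a mitochondrial protein induced in low oxygen, was at 11.3 and 6.20 at E8.5 and 47.5 and 39.6 at E9.5 in cKO hearts. Its WT levels were lower at E9.5, at 16.4 and 21.2 at E8.5 and 1.66 and 0.681 at E9.5. The changes in cKO and WT hearts were 2.24 and -3.21, and the difference between them was 5.45 ± 0.49 (SE, limma adjusted p = 0.025), a call lost under the other settings named with the genotype comparison.

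Of 22 genes of the integrated stress response, which follows amino acid shortage or misfolded protein through the factor ATF4, 19 were tested, 10 rose (against 3.99% of all tested genes) and 0 fell, and all 19 lay above the median gene. The median was 1.47 in cKO hearts and 0.11 in WT hearts, and 1.42 without E8.5 cKO replicate 2 (5 called). *Trib3*, a pseudokinase that restrains this response, was at scaled FPKM of 2.37 and 1.55 at E8.5 and 36.3 and 21.9 at E9.5, a change of 3.32 ± 0.31 (SE, limma adjusted p = 0.00481). *Trib3* of WT hearts was at 1.65 and 2.23 at E8.5 and 2.64 and 1.99 at E9.5. *Chac1*, which degrades glutathione, was at 1.17 and 1.87 at E8.5 and 20.4 and 10.9 at E9.5 and rose by 2.68. *Slc7a3*, a transporter of cationic amino acids, was at 0.296 and 0.210 at E8.5 and 6.82 and 6.34 at E9.5 and rose by 2.60, with a difference from the WT change of 3.06 ± 0.31 (SE, limma adjusted p = 0.0253), a call lost under the same settings. *Slc7a3* is 1 of the 10 genes counted as risen and of the 19 above the median gene. It too passed the filter only through the E9.5 cKO libraries, so both calls are descriptions. Of all tested genes 50 passed in this way, and 17 of them are among the 400 that rose. *Atf4* itself rose by 1.37 and *Ddit3*, the factor CHOP, by 1.71. For the other 9 called genes of this list the difference between genotypes did not pass after adjustment. At an unadjusted p below 0.05 and 1.5-fold, the stage change was higher in cKO than in WT hearts for 12 of the 19 genes and for 10 of the 18 hypoxia genes, against 3.75% of all tested genes. The genes examined include *Slc7a3* and *Car9*, which passed the filter only through the E9.5 cKO libraries, so these counts are descriptions.

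Upstream sequence is shown for 3 of these genes: the 2 largest rises of the hypoxia list and *Chac1*, the largest rise of the stress list whose window held the searched motif (that of *Trib3* held none). The windows are 250 bases before the RefSeq start on GRCm38.p6, all on the plus strand: chr11:54100674-54100923, chr4:43506776-43507025 and chr2:119350992-119351241. In the first 2, capitals mark ACGTG, the core bound by hypoxia-inducible factors, and in *Chac1* TGATGNAA, the composite element of ATF4 and its partners, on either strand. ACGTG was present in 9 of 14 windows of the hypoxia list (64.3%), in 22.8% of the 7665 windows and in 23.5% of the 302 windows of genes that rose. TGATGNAA was present in 4 of 17 windows of the stress list (23.5%), in 1.8% of all and in 2.98% of those of genes that rose. Both lists were made of genes known for these responses, so their shares describe the lists and not these hearts.
P4ha2: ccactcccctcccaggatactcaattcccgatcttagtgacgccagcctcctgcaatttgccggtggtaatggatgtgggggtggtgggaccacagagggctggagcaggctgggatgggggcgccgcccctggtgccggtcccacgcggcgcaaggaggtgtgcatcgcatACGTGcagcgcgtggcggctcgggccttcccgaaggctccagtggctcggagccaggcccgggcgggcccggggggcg
Car9: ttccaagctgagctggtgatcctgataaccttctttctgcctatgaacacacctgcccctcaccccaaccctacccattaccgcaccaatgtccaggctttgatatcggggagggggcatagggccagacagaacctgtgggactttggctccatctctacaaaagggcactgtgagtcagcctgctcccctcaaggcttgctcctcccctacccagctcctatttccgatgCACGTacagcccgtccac
Chac1: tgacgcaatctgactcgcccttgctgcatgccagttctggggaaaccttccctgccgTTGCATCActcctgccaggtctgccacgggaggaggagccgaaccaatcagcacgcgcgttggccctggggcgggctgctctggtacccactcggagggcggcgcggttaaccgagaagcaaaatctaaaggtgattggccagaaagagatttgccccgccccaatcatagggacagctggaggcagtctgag

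Several of the 12 largest rises belonged to no list. *Ctgf*, a matricellular protein, was at scaled FPKM of 12.2 and 4.83 at E8.5 and 466 and 226 at E9.5 and changed by 5.21 ± 0.52 (SE, limma adjusted p = 0.00569). In WT hearts it was at 8.41 and 11.9 at E8.5 and 14.6 and 28.0 at E9.5; the difference between the stage changes was 4.26 ± 0.73 (SE, limma adjusted p = 0.208). *Tagln*, a smooth muscle actin-binding protein that the early heart also makes, rose by 3.41 and *Rasl11b*, a small GTPase, by 3.41. The small heat shock protein *Hspb1* was at 457 and 618 at E8.5 and 5509.9 and 5743 at E9.5, a rise of 3.40 against 3.54 in WT hearts. *Adprhl1*, an ADP-ribosylhydrolase family gene of heart muscle, rose by 3.97 (3.19 in WT hearts) and *Fxyd1*, a regulator of the sodium pump, by 3.72 (3.20). *Pf4*, a platelet chemokine, was at 0.529 and 1.33 at E8.5 and 78.3 and 10.2 at E9.5, with a large spread at E9.5, and rose by 3.98 (3.91 in WT hearts). Its change was 2.60 to 5.45 with 1 cKO library left out. Among other settings, its call was lost with a pseudocount of 5, in a fit of the cKO libraries alone and after GC and length correction.

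Across all tested genes the stage change in cKO hearts had a Spearman rho of 0.61 with that in WT hearts, a description over genes, which are not independent replicates and share the dependence on GC content. Of the 400 genes that rose in cKO hearts, 281 (70.2%) were at least 1.5-fold higher at E9.5 in WT hearts as well, against 16.1% of all tested genes, and 40 were lower. Of the 77 that fell, 59 (76.6%) were at least 1.5-fold lower in WT hearts, against 13.9% of all tested genes, and 3 were higher. The difference between the 2 stage changes was called for 4 genes (0.0399%), 3 with a larger change in cKO hearts and 1 with a smaller. All 4 calls were lost with quantile normalization, without an expression filter, with either replicate block, and without E8.5 WT replicate 1 or either E9.5 cKO library. Without E9.5 cKO replicate 1, 1 other gene was called, and without E9.5 cKO replicate 2, 2 other genes were. At an unadjusted p below 0.05 and 1.5-fold it was higher for 376 genes and lower for 299 (2.98%). Beside *Ndufa4l2* and *Slc7a3*, the third was *H2-Ab1*, the beta chain of an MHC class II molecule, at 9.20 and 9.54 at E8.5 and 83.9 and 55.6 at E9.5 in cKO hearts and at 10.5 and 9.52 at E8.5 and 2.98 and 4.12 at E9.5 in WT hearts. Its difference was 4.02 ± 0.39 (SE, limma adjusted p = 0.025). The fourth, *Rps15a-ps6*, is annotated as a copy of a ribosomal protein gene, so its reads may come from the parent gene. It was at 0.822 and 1.17 at E8.5 and 1.197 and 1.78 at E9.5 in cKO hearts and at 1.46 and 0.587 at E8.5 and 58.6 and 44.3 at E9.5 in WT hearts.

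**Figure D4:**
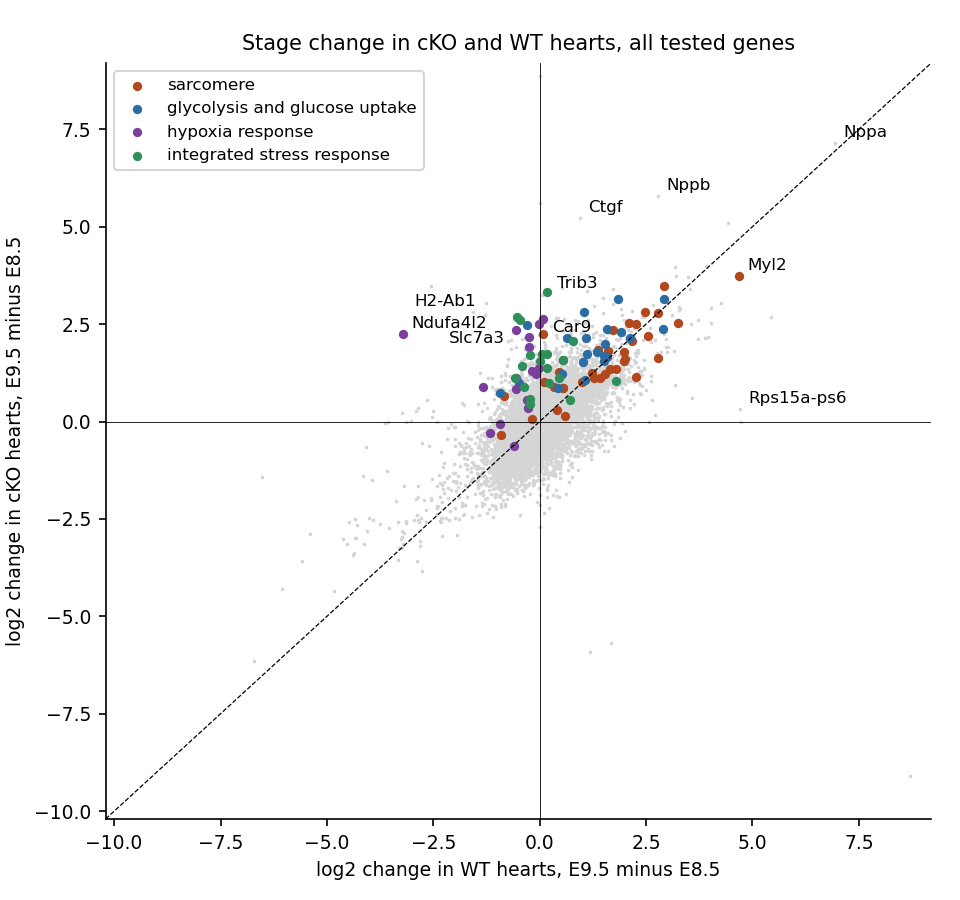
Log2 stage change (E9.5 minus E8.5) of WT hearts (horizontal) and cKO hearts (vertical) for the 10018 tested genes, with 4 gene lists coloured; the dashed line marks equal change. *Nppa* lies near the line at 6.94 and 7.14, sarcomere genes scatter along it, while relative to the median gene the hypoxia list has a median of 1.30 in cKO and -0.24 in WT hearts and the stress list 1.47 and 0.11.

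**Figure D5:**
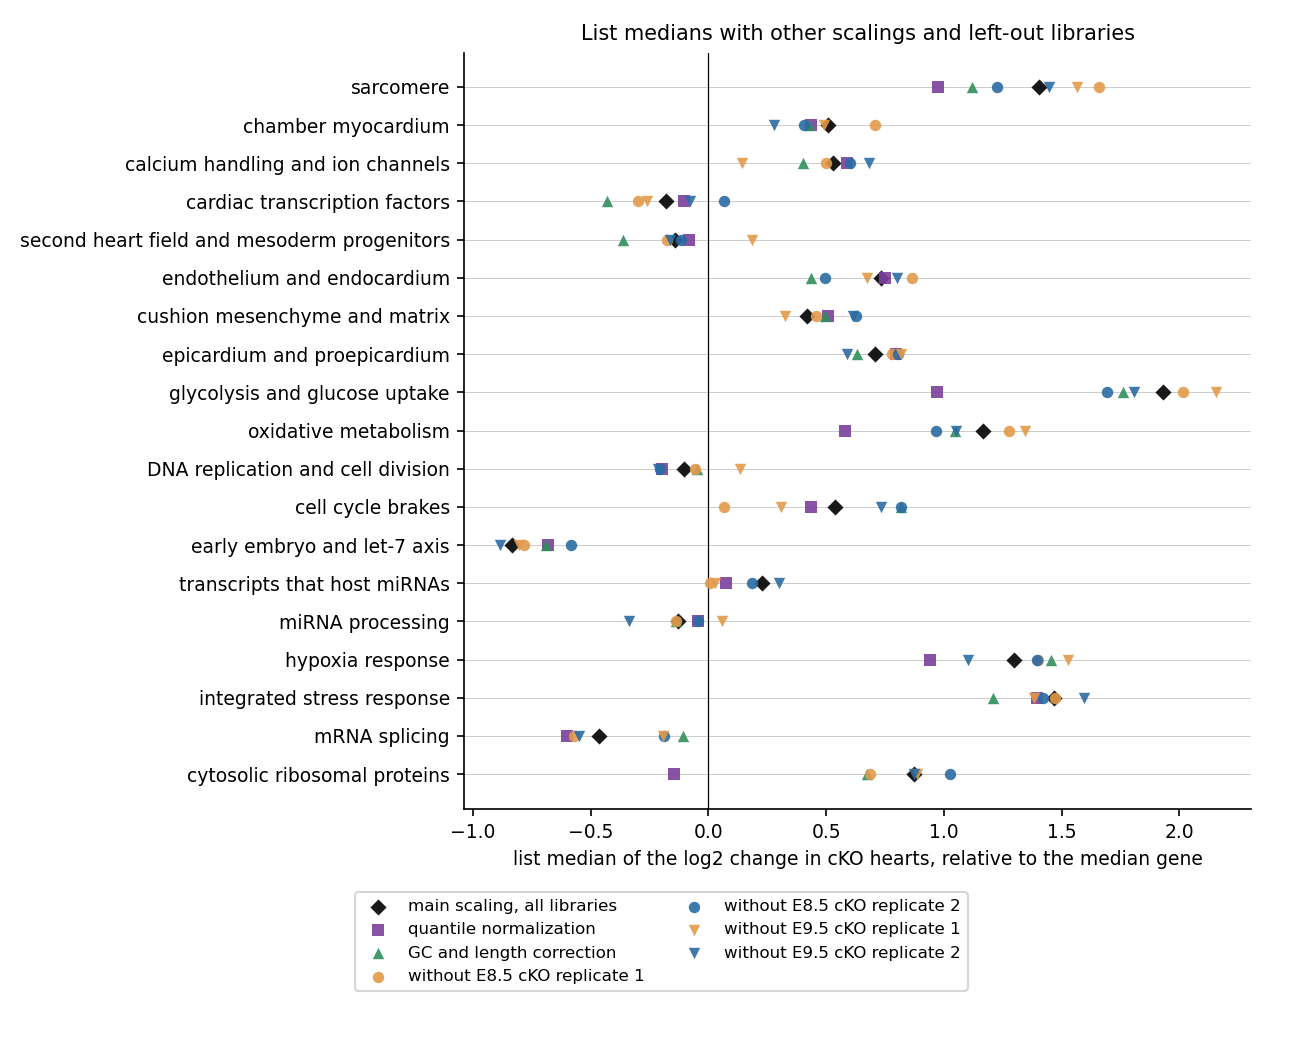
Median log2 change in cKO hearts of the 19 gene lists, relative to the median gene, with the main scaling and with quantile normalization, GC and length correction or 1 left-out cKO library. Glycolysis stays between 0.97 and 2.15 and the sarcomere between 0.98 and 1.66, while ribosomal protein genes turn from 0.87 to -0.15 with quantile normalization.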

How the data were processed

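RNA-seq of whole hearts was deposited as 1 table of FPKM for 8 libraries, 2 biological replicates in each of 4 groups. The authors made the libraries from total RNA by a Smart-seq2 protocol, aligned reads with BWA and deposited the FPKM values; the program that computed them is not given in the sources used here. The submitters' notes name the build mm9, but the coordinates of the table fit GRCm38. Of 24930 entries, 285 symbols were listed more than once and kept the entry with the highest mean, and 27 entries with a date in place of a symbol kept their own names, which left 24385 features, of which 10018 with a mean of at least 1 FPKM were tested. Each library was divided by a median-ratio factor (0.666 to 1.55). limma 3.58.1 in R 4.3.3 was fitted to log2(scaled FPKM + 1) over all 4 groups with a variance trend, and two-sided p-values were adjusted by Benjamini-Hochberg over all tested genes. With 2 replicates a group the residual degrees of freedom are 4, and a group left with 1 library was assumed to vary like the others. Genes were to be named where the call held with each of the 4 cKO libraries left out in turn, a rule met by 0 genes, and beside it as list members, as called differences between genotypes, as falls lost without 1 E8.5 library, and *Dgcr8*. Members, lists and tests were chosen with earlier results of these data known, so lists are described by counts and medians only. Alternatives covered scaling, pseudocount, filter, variance trend, sample set, replicate block and left-out libraries; the correction for GC content and transcript length and the crossed block were added after seeing the data. Replicate numbers were not taken to pair the libraries. On simulated data with 200 genes changed 4-fold in this comparison, over 10018 genes, 67.3% were recovered with 7.5 false calls on average. The simulation changed only genes above a minimum level and gave each gene the same spread in all groups. In the data the E8.5 cKO replicates lay farthest apart (distance across genes 85.9, against 47.9 to 65.1 in the other groups), so these rates may not hold here. Upstream and locus coordinates are 1-based.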

Additional observations from a re-analysis of the deposited data

Results flagged for a closer look

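The stage change (E9.5 minus E8.5) differed between cKO and WT hearts, by the interaction term of the limma model, for 4 genes. All 4 calls were lost with quantile normalization, without an expression filter, with either replicate block, and without E8.5 WT replicate 1 or either E9.5 cKO library. Without E9.5 cKO replicate 1, 1 other gene was called, and without E9.5 cKO replicate 2, 2 other genes were. In scaled FPKM, *Ndufa4l2* was at 11.3 and 6.20 at E8.5 and 47.5 and 39.6 at E9.5 in cKO hearts and at 16.4 and 21.2 at E8.5 and 1.66 and 0.681 at E9.5 in WT hearts, a difference between stage changes of 5.45 ± 0.49 (SE, limma adjusted p = 0.025). *H2-Ab1* was at 9.20 and 9.54 at E8.5 and 83.9 and 55.6 at E9.5 in cKO hearts and at 10.5 and 9.52 at E8.5 and 2.98 and 4.12 at E9.5 in WT hearts, a difference between stage changes of 4.02 ± 0.39 (SE, limma adjusted p = 0.025). *Slc7a3* was at 0.296 and 0.210 at E8.5 and 6.82 and 6.34 at E9.5 in cKO hearts and at 0.812 and 0.592 at E8.5 and 0.162 and 0.311 at E9.5 in WT hearts, a difference between stage changes of 3.06 ± 0.31 (SE, limma adjusted p = 0.0253). *Rps15a-ps6* was at 0.822 and 1.17 at E8.5 and 1.197 and 1.78 at E9.5 in cKO hearts and at 1.46 and 0.587 at E8.5 and 58.6 and 44.3 at E9.5 in WT hearts, a difference between stage changes of -4.40 ± 0.42 (SE, limma adjusted p = 0.025). *Slc7a3* averaged under 1 FPKM in the 6 libraries other than E9.5 cKO and passed the filter on low values only through that group.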

How the results depend on the processing

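The number of rises and falls in cKO hearts (400 and 77) depended on most choices. It was 205 and 2857 as deposited, 258 and 49 with quantile normalization, 99 and 9 without an expression filter, 121 and 23 in a fit of the 4 cKO libraries alone, and 401 and 126 after GC and length correction. Replicate deviations of equal number had a correlation of -0.07 across genes in cKO and -0.12 in WT hearts; the replicate block gave 246 and 43, and the crossed pairing, added after seeing the data, 251 and 39. With 1 of the 8 libraries left out, the counts were 1 to 930 and 0 to 776, and those of the difference between genotypes 0 to 19 and 0 to 16. The difference was called for 0 genes in either direction with quantile normalization, without a filter, with either block and without E8.5 WT replicate 1, and for 0 lower genes with a pseudocount of 0.1, with a minimum of 5 FPKM and after GC and length correction. A fit of the cKO libraries alone gives no such difference.
List medians moved as follows. As deposited they were 0.40 for chamber genes and -0.63 for early embryo genes. With a pseudocount of 5 they were 0.30 for chamber genes, 0.56 for endothelium, 0.25 for cell cycle brakes, -0.34 for early embryo genes, 0.13 for miRNA hosts, 1.005 for hypoxia and 1.05 for the stress response, which was 1.66 with 0.1. With quantile normalization they were 0.97 for glycolysis, 0.58 for oxidative metabolism, 0.074 for miRNA hosts, 0.94 for hypoxia and -0.15 for ribosomal proteins. After GC and length correction they were 0.43 for chamber genes, -0.43 for transcription factors, 0.44 for endothelium, 0.82 for brakes, 1.46 for hypoxia, 1.21 for the stress response and -0.11 for splicing. With 1 library left out they ranged over -0.30 to 0.068 for cardiac transcription factors, 0.068 to 0.82 for cell cycle brakes, 0.28 to 0.71 for chamber myocardium, -0.88 to -0.58 for early embryo and let-7 axis, 0.50 to 0.87 for endothelium and endocardium, 1.10 to 1.53 for hypoxia response, -0.57 to -0.19 for mRNA splicing, 0.14 to 0.68 for calcium handling and ion channels, -0.21 to 0.14 for DNA replication and cell division, -0.17 to 0.19 for second heart field and mesoderm progenitors, -0.34 to 0.058 for miRNA processing, 0.32 to 0.63 for cushion mesenchyme and matrix and 0.0050 to 0.30 for transcripts that host miRNAs. The other 6 lists moved by less than 1.5 times. Without E9.5 cKO replicate 1 the medians of replication, second heart field and miRNA processing genes turned positive and that of calcium genes was at its lowest, and the lowest value was that without E9.5 cKO replicate 2 for chamber genes and without E8.5 cKO replicate 1 for brakes and miRNA hosts. The sign of a gene's change turned for *Dgcr8* (0.018 after GC and length correction), *Rps15a-ps6* (-0.095 as deposited), *Myl7* (-0.0094 with quantile normalization), *Nebl* (0.28 after GC and length correction), *Nkx2-5* (-0.018), *Wt1* (-0.13) and *Vegfa* (-0.12), the last 3 as deposited. With 1 library left out it turned for *Dgcr8* (-0.76 to 0.41), *Gata4* (-0.50 to 0.22), *Isl1* (-1.44 to 0.20), *Mir17hg* (-0.29 to 0.13), *Nebl* (-0.999 to 0.31), *Nkx2-5* (-0.35 to 1.78), *Vegfa* (-0.0084 to 0.74) and *Wt1* (-0.35 to 1.16). Of these 10 genes, 0 were called in cKO hearts. Of the 64 named genes called in cKO hearts, 31 kept the call without E8.5 cKO replicate 2, 62 without replicate 1, 0 without E9.5 cKO replicate 1 and 10 without replicate 2. The cause of these shifts was not tested.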
